A study of Mus musculus with 9 samples.

Results

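Tumoroids, which are organoids grown from primary intestinal tumours, were compared with all organoids of normal small intestine in the series. The comparison took its members from the sample labels alone, 3 tumoroid libraries against 6 organoid libraries, which are all 9 libraries of the series. The tumoroids were labelled Apc1638N/+, of strain "MIX" and untreated, and came from tumours of 3 mice older than 6 months. The organoids were labelled WT, strain C57BL/6, and came from the small intestine of 3 other mice aged 2 to 5 months. They had been kept for 24 hr in medium of which 50% was conditioned medium, either from organoids (WT-cM) or from tumoroids (T-cM), with 3 libraries each. The titles and the treatment fields of the organoid libraries name opposite media, so both media entered with equal weight and no direction was drawn between them. Organoids were grown with EGF, Noggin and R-spondin. The study's methods give medium without R-spondin for tumoroids, while the growth label, worded alike for every sample, lists it. Both kinds of culture were epithelial cells embedded in Matrigel. The strain labels differ, whereas the study's methods give a mixed background for its mice in general. Genotype, strain label, age, growth medium and conditioned medium all differed between tumoroids and organoids, so their parts in a difference cannot be told apart. Each tumoroid library came from a different mouse, and libraries are numbered 1 to 3 as in the titles. The design text and the sample term of the study's model tie the organoid libraries of one number in both media to the same mouse, so the 6 organoid libraries are not 6 independent samples.

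The intestinal epithelium renews itself from stem cells at the base of the crypts, where Wnt ligands and R-spondin keep β-catenin active. β-catenin pairs with TCF/LEF proteins on DNA and switches on target genes, several of which feed back to restrain the pathway. APC is the scaffold of the complex that degrades β-catenin, and mice with a truncated allele develop intestinal tumours once the remaining copy is lost. Cells that leave the crypt switch Wnt targets off and mature into absorptive enterocytes or into goblet, enteroendocrine and tuft cells. Paneth cells, also a mature type, remain at the crypt base. After injury, and in the foetal gut, the epithelium instead uses a programme with YAP, a coactivator that works through TEAD proteins.

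The libraries held between 16541635 and 25170966 counts on genes, and 16208 of 50600 genes reached a TPM (counts per length, scaled to the same total) of at least 1 in at least 1 library and were tested. Levels are given as CPM, each count divided by the normalised library size and scaled to 1000000. On that scale 3 counts, taken as the least that shows a transcript, amounted to 0.103 to 0.204 CPM, a limit that covers counting error only. A call required 2 things of edgeR's quasi-likelihood test: a Benjamini-Hochberg adjusted p below 0.05, and a log2 fold change beyond 1 in either direction. Of the tested genes, 33.1% were called, 3400 genes (21%) higher and 1963 (12.1%) lower in tumoroids. All 3 tumoroid libraries lay above all 6 organoid libraries for 25.6% of the tested genes and below them for 20.2%. A gene that reached 1 TPM in one group alone was tested through that group, which favours a difference in its direction. This held for 2449 tested genes through tumoroids and 904 through organoids. Of the 12855 genes that reached 1 TPM in both groups, 13.6% were called higher and 12.2% lower. The median log2 fold change over all tested genes was 0.16. Upper-quartile factors raised it by 0.11 and the deposited TPM by 0.35 to 0.48, and the share of calls that were higher went from 63.4% to 78.5% with TPM. With the counts of the organoid libraries of each mouse summed, 3 against 3, 4731 genes were called.

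**Figure D1:**
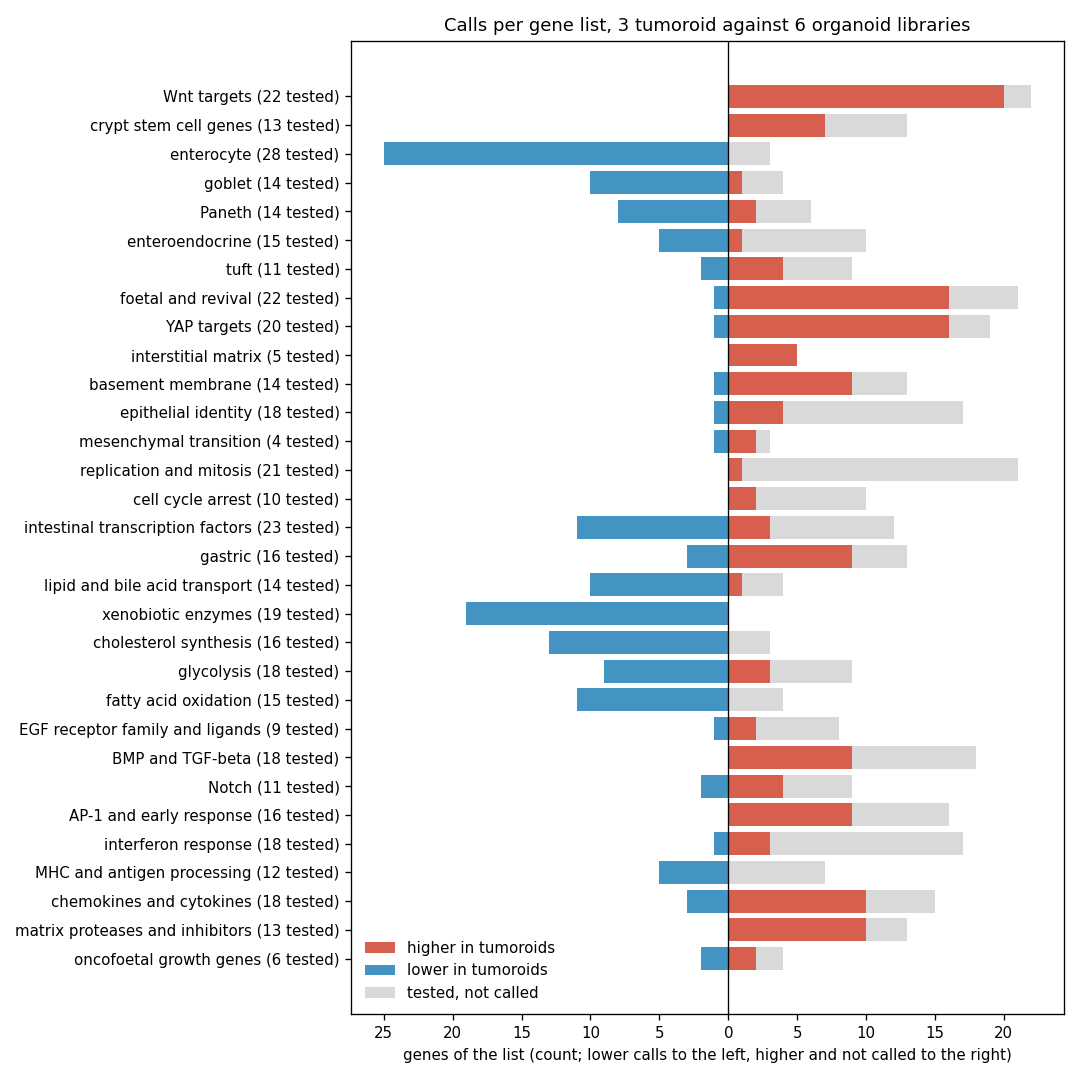
Calls in 31 gene lists, as the number of genes called higher in tumoroids (right, red), called lower (left, blue) and tested without a call (right, grey), from 3 tumoroid and 6 organoid libraries. Of the Wnt targets 20 of 22 were called higher, and of the enterocyte genes 25 of 28 and of the xenobiotic enzymes 19 of 19 were called lower.

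The label of epithelial cells was checked against marker genes. Epcam, the surface marker of gut epithelium, stood at 842, 739 and 964 CPM in tumoroids 1, 2 and 3 and at 1033 to 1152 CPM (median 1068) in organoids. Cdh1, or E-cadherin, stood at 722, 892 and 1027 CPM in tumoroids and 732 to 882 CPM (median 869) in organoids, and neither gene was called. The summed level of the 7 epithelial markers was 5826 to 6041 CPM in tumoroids and 10212.5 to 12436 in organoids, with Vil1, Cdh17 and Krt19 called lower. Fibroblast markers summed to 0.499 to 2.64 CPM in tumoroids and 0.543 to 1.51 in organoids, and 9 of the 10 did not reach the limit for testing. The defining fibroblast genes Dcn, Lum and Col3a1 had no more than 0.0343 CPM in any library. Smooth muscle markers summed to 4.44, 2.16 and 46.2 CPM in tumoroids against at most 0.952 in organoids, of which Acta2 alone gave 4.03, 1.86 and 46.0 CPM, while Myh11, Des and Cnn1 had at most 0.181 CPM in any library. Immune markers summed to 9.52, 28.0 and 29.6 CPM in tumoroids and 1.48 to 5.69 in organoids, through Csf1r, Cd68 and Laptm5, which were called higher. The pan-leukocyte gene Ptprc was at most 0.902 CPM in any library, and Cd3e and Tyrobp had no counts in any. Endothelial markers summed to 1.41 to 6.08 CPM in tumoroids and 1.09 to 1.65 in organoids, glial and neural markers to 1.96 to 3.72 and 1.76 to 5.05, and pancreatic acinar markers to 19.9 to 44.2 and 11.8 to 24.8. Among the members called were Cdh5 (no counts in organoids and mostly in tumoroid 3) and Cela1, both higher, and Ctrb1, lower. Globin genes summed to at most 0.177 CPM in any library. By an exact permutation test of 3 against 6 libraries (two-sided, smallest possible p 0.0238), the smooth muscle, immune and epithelial sums and the number of detected genes each had p = 0.0238, or 0.0655 after adjustment over 11 measures. This test takes the 6 organoid libraries as independent, and with 3 mice against 3 mice the smallest possible p would be 0.1.

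Apc itself, on chromosome 18, was transcribed in both cultures. It stood at 79.4, 105 and 124 CPM in tumoroids 1, 2 and 3 and at 103 to 171 CPM (median 139) in organoids. The groups overlapped and the gene was not called (log2 fold change -0.42 ± 0.18 (SE), adjusted p = 0.07), and on the TPM scale the sign turned (0.09). Gene-level counts do not separate the mutant from the wildtype allele, so this value does not check the genotype.

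Wnt target genes were higher in tumoroids almost throughout the list. Of 22 targets, 20 were called higher and none lower, against 21% of all tested genes called higher. In each of the 20 every tumoroid library lay above every organoid library, which held for 25.6% of all tested genes. Of the 13 targets that reached 1 TPM in both groups 11 were called higher, against 13.6% of all such genes. The median log2 fold change of the list was 2.98. Members not called were Ephb2, a receptor that places cells along the crypt (172, 91.3 and 174 CPM in tumoroids against 65.1 to 128 CPM (median 82.9) in organoids), and Bambi, a decoy receptor for TGF-beta family ligands (2.08, 1.45 and 6.25 CPM against 0.934 to 2.65 CPM (median 1.57), called without tumoroid 2 at 1.31).

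**Figure D2:**
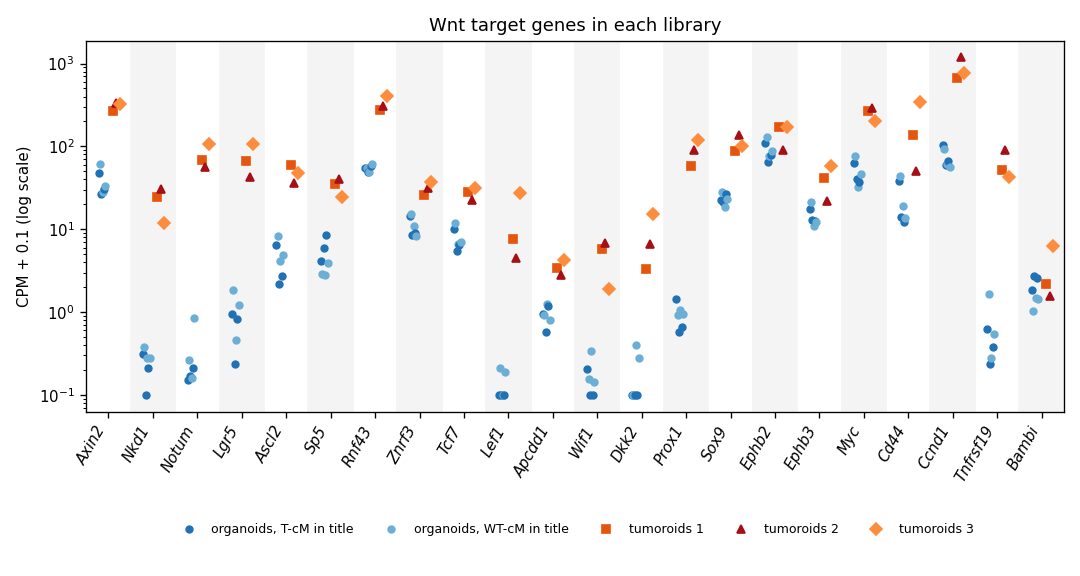
CPM plus 0.1 on a log axis for the 22 Wnt target genes, with 1 point per library (6 organoid libraries in blue, tumoroids 1 to 3 in red and orange). Tumoroid points lie above all organoid points in 20 genes and overlap with them in Ephb2 and Bambi.

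Genes whose products restrain the pathway were among those called higher. Notum, a secreted enzyme that inactivates Wnt ligands, had 68.0, 56.6 and 106 CPM in tumoroids 1, 2 and 3 and 0.0529 to 0.753 CPM (median 0.0903) in organoids (log2 fold change 8.79 ± 0.48 (SE), adjusted p = 1.6e-06). Nkd1, an intracellular antagonist, had 24.3, 30.6 and 11.7 CPM in tumoroids and 0 to 0.275 CPM (median 0.180) in organoids (log2 fold change 7.10 ± 0.47 (SE), adjusted p = 4.3e-06). Rnf43, a ubiquitin ligase that removes Wnt receptors from the membrane, was already expressed in organoids at 48.7 to 61.3 CPM (median 55.2) and reached 272, 303 and 409 CPM in tumoroids (log2 fold change 2.59 ± 0.15 (SE), adjusted p = 2.0e-06). For these inhibitors the organoid libraries were either near the detection limit or clearly expressed, and the tumoroids were higher in both cases. Prox1, a transcription factor found in intestinal adenomas, stood at 57.6, 90.2 and 119.5 CPM in tumoroids and 0.475 to 1.32 CPM (median 0.833) in organoids (log2 fold change 6.72 ± 0.32 (SE), adjusted p = 9.9e-07). Ccnd1, which encodes cyclin D1, had 663, 1184 and 769 CPM against 56.0 to 105 CPM (median 63.8) (log2 fold change 3.57 ± 0.25 (SE), adjusted p = 5.6e-06). Tnfrsf19, a receptor of crypt stem cells, had 52.1, 90.7 and 42.9 CPM against 0.136 to 1.54 CPM (median 0.362) (log2 fold change 6.98 ± 0.51 (SE), adjusted p = 6.6e-06). In each of these genes the spread among tumoroids was small beside the distance to the organoids. Without WT-cM-titled organoids 3 Notum had a log2 fold change of 9.58, and without organoid mouse 1 Tnfrsf19 had 7.79.

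Crypt stem cell genes did not move as a block. Of 13 tested, 7 were called higher (21% of all tested genes) and none lower, with a median log2 fold change of 1.83. Lgr5, the receptor for R-spondin that marks crypt stem cells, had 66.7, 42.6 and 106 CPM in tumoroids and 0.136 to 1.76 CPM (median 0.789) in organoids (log2 fold change 6.47 ± 0.48 (SE), adjusted p = 6.8e-06). Ascl2, the transcription factor that maintains those cells, had 59.3, 35.9 and 48.2 CPM against 2.10 to 8.08 CPM (median 4.41) (log2 fold change 3.39 ± 0.35 (SE), adjusted p = 4.2e-05). Cdk6, a cyclin D partner, and Soat1, which esterifies cholesterol, had log2 fold changes of 2.87 and 2.14. Olfm4, in contrast, a secreted marker of small intestinal stem cells, stood at 19.4, 1.90 and 4.74 CPM in tumoroids and 9.36 to 157 CPM (median 17.9) in organoids and was not called (log2 fold change -2.59 ± 1.17 (SE), adjusted p = 0.092). The groups overlapped for Olfm4, with the highest level in an organoid library, and with 1 library or organoid mouse left out its log2 fold change lay between -3.96 and -0.77. Lrig1 (143, 54.1 and 198 CPM in tumoroids), Rgmb (15.9, 16.5 and 17.7 CPM), Gkn3, Msi1 and Aqp4 were not called either.

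The promoter of Sp5 is shown because this gene, a transcription factor and Wnt target chosen here after its values were seen, was higher in tumoroids (35.2, 40.2 and 24.1 CPM against 2.74 to 8.34 CPM (median 3.91) in organoids, log2 fold change 2.93 ± 0.25 (SE), adjusted p = 1.6e-05) and its window holds 2 TCF/LEF core motifs. The promoters of Sis and Fabp1, genes of mature enterocytes described next, are shown for the opposite direction and hold the core motif of CDX proteins. Sequences are from RefSeq (GRCm38.p6), 250 bases before to 50 after the gene's start, read 5′ to 3′ on the gene's strand, with motif matches on either strand in capitals. CTTTGA was searched for TCF/LEF and TTTATG for CDX, and the CDX motif can overlap the A and T rich sequence of TATA elements.
Sp5, chr2:70474673-70474972, plus strand: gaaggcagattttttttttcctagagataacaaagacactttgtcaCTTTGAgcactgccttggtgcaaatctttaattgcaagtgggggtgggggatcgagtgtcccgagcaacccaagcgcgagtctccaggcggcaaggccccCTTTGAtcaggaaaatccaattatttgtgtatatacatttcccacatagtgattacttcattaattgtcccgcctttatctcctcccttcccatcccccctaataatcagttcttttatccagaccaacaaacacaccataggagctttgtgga
Sis, chr3:72967814-72968113, minus strand: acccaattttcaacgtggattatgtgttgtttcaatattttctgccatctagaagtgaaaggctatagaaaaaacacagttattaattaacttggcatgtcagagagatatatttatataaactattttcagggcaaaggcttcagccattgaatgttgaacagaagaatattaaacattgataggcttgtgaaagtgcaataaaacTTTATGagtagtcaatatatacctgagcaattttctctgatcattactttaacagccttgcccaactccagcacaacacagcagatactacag
Fabp1, chr6:71199629-71199928, plus strand: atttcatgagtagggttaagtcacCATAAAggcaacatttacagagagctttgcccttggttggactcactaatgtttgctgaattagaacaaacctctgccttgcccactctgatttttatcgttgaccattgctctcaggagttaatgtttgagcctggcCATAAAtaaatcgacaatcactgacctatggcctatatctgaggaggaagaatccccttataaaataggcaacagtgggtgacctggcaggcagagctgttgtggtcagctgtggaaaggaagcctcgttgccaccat
The matches start 204 and 104 bases before the start in Sp5, 43 bases before it in Sis, and 226 and 88 bases before it in Fabp1. Of all 32851 windows of the same length, 16% hold CTTTGA and 11.9% hold TTTATG, so a match is a description of the sequence and not a binding site. A promoter was available for 65.5% of the tested genes, and motif shares were not compared between called and other genes.

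Genes of absorptive enterocytes were lower in tumoroids by large factors. Of 28 tested, 25 were called lower and none higher, against 12.1% of all tested genes called lower, and the median log2 fold change was -6.14. In these bulk samples fewer cells of a type and less RNA per cell cannot be told apart. Fabp1, the liver-type fatty acid binding protein of enterocytes, had 3.13, 6.25 and 1.31 CPM in tumoroids 1, 2 and 3 and 3140.1 to 9975 CPM (median 4461) in organoids (log2 fold change -10.52 ± 0.79 (SE), adjusted p = 7.1e-06). Fabp2, the intestinal form, had 6.44, 2.83 and 3.88 CPM against 1369.6 to 2607 CPM (median 1621) (log2 fold change -8.72 ± 0.41 (SE), adjusted p = 9.9e-07). Sis, the brush border disaccharidase sucrase-isomaltase, had 27.9, 14.6 and 10.6 CPM against 5694 to 11754 CPM (median 8716) (log2 fold change -8.88 ± 0.55 (SE), adjusted p = 3.2e-06). No tumoroid library came near the lowest organoid library in any of them. The sugar transporters Slc2a5 (GLUT5, 1.90, 3.35 and 1.17 CPM in tumoroids, 161 to 328 CPM (median 263) in organoids) and Slc2a2 (GLUT2, 1.54, 3.20 and 0.962 CPM against 211 to 586 CPM (median 279.8)) had log2 fold changes of -6.85 and -7.46. Without tumoroid 2 the log2 fold changes of Fabp1 and Slc2a2 were -11.24 and -8.09. Treh, which splits trehalose, had 1.68, 3.72 and 2.16 CPM against 120.0 to 258 CPM (median 181), and Cyp3a11, a drug-metabolising enzyme, 2.95, 3.83 and 1.85 CPM against 280.1 to 421 CPM (median 390.2).

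**Figure D3:**
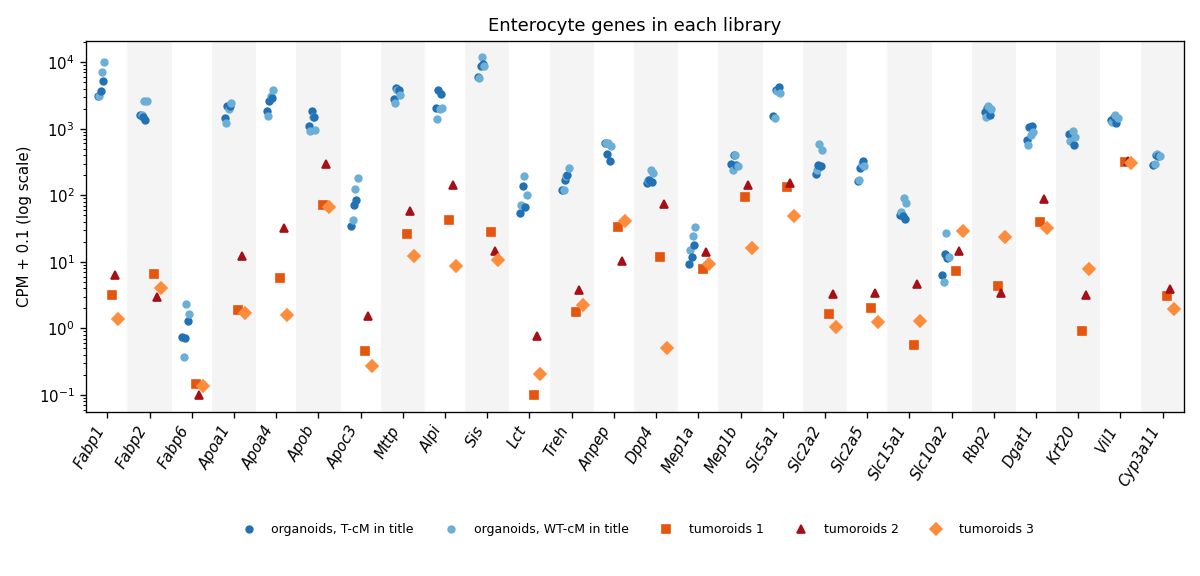
CPM plus 0.1 on a log axis for 26 enterocyte genes, with 1 point per library. The tumoroid points (red and orange) lie below all organoid points (blue) in 24 genes and overlap with them in Mep1a and Slc10a2. Tumoroid 2 is the highest tumoroid for genes such as Alpi and Dpp4.

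The 3 enterocyte genes not called were Dpp4, Mep1a and Slc10a2. Dpp4, a brush border peptidase, was at 11.5, 72.8 and 0.412 CPM in tumoroids 1, 2 and 3, below its 150.2 to 241 CPM (median 169) in organoids in every library but spread widely (log2 fold change -2.68 ± 1.03 (SE), adjusted p = 0.054). It was called without tumoroid 2 (-4.97) or 3 (-2.11). Mep1a, a metalloprotease subunit, overlapped between groups at 7.61, 13.8 and 9.07 CPM and 9.15 to 32.8 CPM (median 16.5), and was called without tumoroid 2 (-1.09) or organoid mouse 1 (-1.07). Slc10a2, the bile acid importer of the ileum, was at 7.25, 14.6 and 28.9 CPM in tumoroids and 4.89 to 26.8 CPM (median 11.4) in organoids. Tumoroids differed in their order between brush border enzymes. Anpep was lowest in tumoroid 2 (33.7, 10.1 and 40.9 CPM) and Sis highest in tumoroid 1, whereas tumoroid 2 had the most of others, with Alpi at 42.5, 143 and 8.62 CPM and Enpep at 9.83, 199 and 1.55 CPM, genes named after their values were seen. Without tumoroid 2 the log2 fold changes of Alpi and Enpep were -6.55 and -7.30 in place of -5.19 and -3.63. The call of Enpep was lost without tumoroid 1, without any 1 organoid mouse, and without the organoids of number 2 or 3 under either title.

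Lists of the enterocyte's metabolic functions went the same way. All 19 xenobiotic enzymes and transporters were called lower without overlap (median log2 fold change -4.11). Of all tested genes, 12.1% were called lower and 20.2% lay below all organoid libraries. Gsta1 and Gstm3, glutathione transferases, had 4.99, 4.50 and 8.93 CPM and 15.4, 11.3 and 16.3 CPM in tumoroids against 1347 to 1870.4 CPM (median 1567) and 2344 to 4166 CPM (median 3758) in organoids. Ugt2b5, which adds glucuronic acid to small molecules, had 0.408, 0.409 and 0.0343 CPM against 372 to 577 CPM (median 496) (log2 fold change -10.75 ± 0.52 (SE), adjusted p = 1.1e-06). Ces2a, a carboxylesterase with the smallest log2 fold change of the list, stood with 146, 88.8 and 92.9 CPM against 563 to 967 CPM (median 813) (log2 fold change -2.86 ± 0.26 (SE), adjusted p = 1.9e-05). Of 14 genes of lipid and bile acid transport, 10 were called lower (12.1% of all tested genes). Slc27a4, a fatty acid importer, had 49.4, 53.1 and 63.4 CPM against 337 to 522 CPM (median 444) (log2 fold change -2.96 ± 0.19 (SE), adjusted p = 3.9e-06), and Mogat2, which rebuilds triglycerides in enterocytes, 24.8, 16.5 and 13.2 CPM against 240.2 to 416 CPM (median 316) (log2 fold change -4.14 ± 0.29 (SE), adjusted p = 5.5e-06). The exception was Fgf15, the hormone with which ileal cells report bile acids to the liver. It was called higher, at 11.5, 14.9 and 4.19 CPM in tumoroids and 0.220 to 1.03 CPM (median 0.539) in organoids (log2 fold change 4.11 ± 0.51 (SE), adjusted p = 0.00014), while Slc51b, a subunit of the bile acid exporter, was lower (log2 fold change -5.91 ± 0.71 (SE), adjusted p = 0.00011, or -7.85 without tumoroid 2). Plin2, Cd36 and Abca1 were not called, and Cd36, a fatty acid receptor, was at 0.272, 9.30 and 0 CPM in tumoroids 1, 2 and 3 against 14.4 to 25.4 CPM (median 20.1), called when run without tumoroid 2 (-7.30).

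In fatty acid oxidation 11 of 15 genes were called lower (12.1% of all tested genes), with a median log2 fold change of -1.52. Ehhadh, the bifunctional enzyme of peroxisomes, had 34.4, 27.4 and 21.1 CPM in tumoroids and 225 to 334 CPM (median 292) in organoids (log2 fold change -3.34 ± 0.22 (SE), adjusted p = 4.3e-06), and Cpt2, which hands fatty acids to mitochondria, 47.5, 42.8 and 54.4 CPM against 157 to 186 CPM (median 177) (log2 fold change -1.86 ± 0.12 (SE), adjusted p = 4.4e-06). Acadm, Acadl and Pdk4 were among the members not called. Cholesterol synthesis had 13 of 16 genes called lower (12.1% of all tested genes) and 15 below all organoid libraries (20.2% of all tested genes), with a median of -1.52. Insig1, which takes part in sterol sensing, had the largest difference of the list, with 65.1, 24.6 and 83.4 CPM in tumoroids against 544 to 887 CPM (median 619) in organoids (log2 fold change -3.55 ± 0.39 (SE), adjusted p = 6.8e-05), and Fdft1 and Srebf2 were among those not called.

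Glycolytic genes were lower in part. Of 18, 9 were called lower, against 12.1% of all tested genes, and 3 higher, below the 21% of all tested genes. Ldha, lactate dehydrogenase A, had 542, 437 and 973 CPM in tumoroids against 2411 to 4585 CPM (median 3361) in organoids (log2 fold change -2.37 ± 0.33 (SE), adjusted p = 0.00026), and Eno1 654, 579.6 and 692 CPM against 1224 to 2451 CPM (median 1807) (log2 fold change -1.51 ± 0.27 (SE), adjusted p = 0.0013). The higher members were the hexokinases Hk1 (97.8, 95.2 and 183 CPM against 12.8 to 47.0 CPM (median 23.9)) and Hk2 (35.2, 56.4 and 58.6 CPM against 13.4 to 19.6 CPM (median 16.7)) and the enolase Eno2, usual in neurons (1.45, 4.83 and 3.47 CPM against 0 to 0.0678 CPM (median 0)). Among isoforms of one reaction, Eno1 and Eno2 were therefore called in opposite directions, which was not tested as a difference. With a test against a log2 fold change of 1, 3 glycolytic genes were called lower instead of 9.

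Of 14 goblet cell genes 10 were called lower, against 12.1% of all tested genes. Fcgbp and Muc2, components of secreted mucus, had 213, 129.7 and 266 CPM and 11.1, 4.57 and 8.24 CPM in tumoroids 1, 2 and 3 against 1123 to 1381 CPM (median 1262) and 39.7 to 62.8 CPM (median 51.1) in organoids. Clca1 and Zg16, other mucus proteins, had log2 fold changes of -4.09 and -4.12, and Spdef, the goblet transcription factor, -2.01. Tumoroid 2 was the lowest of the 3 tumoroids in each of these. Retnlb, an antimicrobial product of goblet cells, went the other way, at 38.2, 0.744 and 0.206 CPM in tumoroids against 0 to 0.0443 CPM (median 0), so that tumoroid 1 carried nearly all of it (a ratio of 1420.0 (95% counting interval 255 to 56000.0), adjusted p = 0.0045). Spink4, Creb3l1 and Galnt12 were not called.

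Of 14 Paneth cell genes 8 were called lower, against 12.1% of all tested genes, and 2 higher, below the 21% of all. The lower ones were lysozyme and alpha-defensins, a family whose near-identical copies can share reads, so that single defensin values are uncertain. Defa30 had 72.8, 8.40 and 25 CPM in tumoroids and 414 to 558 CPM (median 473) in organoids (log2 fold change -3.77 ± 0.60 (SE), adjusted p = 0.00063), and Defa24 555, 38.5 and 147 CPM against 1728 to 2398 CPM (median 1903) (log2 fold change -2.98 ± 0.70 (SE), adjusted p = 0.006). Lyz1 had 165, 3.05 and 286 CPM against 1001 to 1428 CPM (median 1117) (log2 fold change -2.96 ± 0.98 (SE), adjusted p = 0.03). Tumoroid 2 was the lowest tumoroid for lysozyme and every defensin listed. The higher ones were Mmp7, the protease that activates defensins and also a tumour-associated Wnt target (264, 91.1 and 523 CPM against 62.0 to 98.6 CPM (median 67.3), log2 fold change 1.98 ± 0.39 (SE), adjusted p = 0.0022), and Nupr1, a stress-responsive nuclear protein (118, 476 and 201 CPM against 14.5 to 23.6 CPM (median 17.4), log2 fold change 3.87 ± 0.37 (SE), adjusted p = 2.8e-05). Without tumoroid 1 the log2 fold changes of Defa24 and Defa30 were -4.39 and -4.85 and lysozyme lost its call, as it did without WT-cM-titled organoids 3 or any 1 organoid mouse. Without tumoroid 3 Mmp7 had 1.24 and lysozyme -3.83, and without tumoroid 2 Nupr1 had 3.12. Itln1, Ang4, Mptx2 and Habp2 were not called.

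Enteroendocrine genes had 5 of 15 called lower, against 12.1% of all tested genes, and 1 higher, below the 21% of all. Hormone genes accounted for the lower calls together with Chga, a granule protein (51.3, 19.4 and 17.6 CPM in tumoroids, 39.8 to 82.9 CPM (median 61.0) in organoids). Gcg, the proglucagon gene, had 1.68, 0.0372 and 1.85 CPM against 13.8 to 60.3 CPM (median 36.8) (log2 fold change -4.77 ± 0.76 (SE), adjusted p = 0.00061), and Sct, secretin, 3.31, 1.23 and 1.55 CPM against 8.51 to 17.3 CPM (median 13.4) (log2 fold change -2.74 ± 0.38 (SE), adjusted p = 0.00025). Neurog3, the transcription factor of their progenitors, was called higher at 14.1, 2.45 and 9.93 CPM against 0.122 to 2.22 CPM (median 0.325) (log2 fold change 3.42 ± 0.86 (SE), adjusted p = 0.0084, or 5.14 without organoid mouse 1). Without tumoroid 1, which had the most Chgb, Gip and Sst transcript of the tumoroids, 9 genes of the list were called lower. Chga overlapped between groups and lost its call without tumoroid 2 or 3, T-cM-titled organoids 1, WT-cM-titled organoids 3 or organoid mouse 1 or 3, and had -1.73 without tumoroid 1. Of 11 tuft cell genes 4 were called higher and 2 lower, against 21% and 12.1% of all tested genes. Pou2f3, the master regulator of tuft cells, had 15.5, 9.15 and 11.1 CPM against 2.20 to 3.26 CPM (median 2.66) (log2 fold change 2.13 ± 0.24 (SE), adjusted p = 6.5e-05), Ptgs1, which encodes cyclooxygenase-1, 69.7, 103 and 182 CPM against 1.90 to 6.43 CPM (median 3.30) (log2 fold change 5.00 ± 0.38 (SE), adjusted p = 7.6e-06), and Avil, an actin-binding protein, 35.1, 41.9 and 52.8 CPM against 8.90 to 11.1 CPM (median 10.1) (log2 fold change 2.11 ± 0.15 (SE), adjusted p = 6.4e-06). Sh2d6 was among those called lower. The much used markers Dclk1 (7.16, 5.69 and 16.5 CPM against 12.0 to 18.6 CPM (median 15.7), called lower without tumoroid 3) and Trpm5 (11.6, 4.16 and 11 CPM against 11.1 to 14.6 CPM (median 13.9)) were not called, nor were Rgs13, Ltc4s and Alox5ap.

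Transcription factors of intestinal identity were lower in part. Of 23, 11 were called lower, against 12.1% of all tested genes, and 3 higher, below the 21% of all. Creb3l3, a regulator of lipid genes, had 1.45, 4.65 and 1.20 CPM in tumoroids and 363 to 729.7 CPM (median 594) in organoids (log2 fold change -7.83 ± 0.59 (SE), adjusted p = 7.5e-06). Hnf4g had 26.4, 29.4 and 11.5 CPM against 432 to 739.6 CPM (median 501) (log2 fold change -4.65 ± 0.39 (SE), adjusted p = 1.3e-05), while its paralog Hnf4a, also called lower, had 539.7, 661 and 362 CPM against 1002 to 1309.7 CPM (median 1177) (log2 fold change -1.16 ± 0.21 (SE), adjusted p = 0.0013, or -0.97 and no call without tumoroid 3). The nuclear receptors Ppara, Vdr and Nr1i3, which sense fatty acids, vitamin D and foreign compounds, had log2 fold changes of -3.61, -2.33 and -4.30. Without tumoroid 2 Creb3l3, Ppara and Nr1i3 had -8.73, -4.41 and -5.42. Gata6 was lower and Gata5 was not called, at -1.30 and 0.86. Cdx2, a master gene of the intestine, was at 188, 159 and 76.7 CPM in tumoroids against 158 to 202 CPM (median 191) and was not called, with tumoroid 3 below every organoid library. Isx, Prdm1 and Klf4 were the members called higher. Prdm1, a repressor that marks the foetal intestine, had 13.6, 40.3 and 20.2 CPM against 1.10 to 5.64 CPM (median 2.78) (log2 fold change 2.93 ± 0.47 (SE), adjusted p = 0.00062).

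Stomach-type genes were mixed. By the study's methods no tumoroid line came from a periampullary tumour. Of 16 tested, 9 were called higher and 3 lower (21% and 12.1% of all tested genes). Of these, 8 reached 1 TPM in tumoroids alone. Of the 7 that reached it in both groups 3 were called higher and 2 lower (13.6% and 12.2% of all such genes). With limma voom and a correlation within mouse 5 were called higher. Muc5ac, the mucin of the stomach surface, had 17.6, 1.93 and 9.72 CPM in tumoroids 1, 2 and 3 and no counts in organoids, at least 57.8-fold higher on average against a floor of 3 counts per library, or at least 34.5-fold without tumoroid 1. Muc1, a membrane mucin, had 2.49, 6.28 and 19.8 CPM against 0 to 0.0886 CPM (median 0) (a ratio of 517 (95% counting interval 143 to 4270.0), adjusted p = 0.0002), mostly in tumoroid 3, without which the ratio was 238. Its 2 organoid counts were in 1 library, WT-cM-titled organoids 3. Ctse, cathepsin E, had 42.6, 49.3 and 189.6 CPM against 2.42 to 10.2 CPM (median 4.60) (log2 fold change 4.11 ± 0.57 (SE), adjusted p = 0.00028). Vsig1 and Psca, surface proteins of gastric cells, were at 4.67, 0.744 and 24.6 CPM and 9.74, 15.7 and 151 CPM in tumoroids, highest in tumoroid 3. Sox2, the transcription factor of the foregut, was mostly in that library, at 0.634, 0.521 and 27.9 CPM against no counts in organoids, at least 57.4-fold higher on average, or at least 3.42-fold without tumoroid 3. Without tumoroid 3 the log2 fold changes of Vsig1, Psca and Ctse were 2.90, 1.71 and 3.06, and without organoid mouse 2 that of Ctse was 4.71. Lower were Anxa10 (1.54, 0.632 and 12.3 CPM against 86.9 to 178 CPM (median 123)), Cldn18 and Tff1, and Gkn1, Pgc, Pdx1 and Atp4a were not called. The list's median log2 fold change was 3.53, or 2.78 with genes absent from organoids set at their bound.

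Foetal and revival genes, which mark the foetal gut and the epithelium after injury, were among the largest differences. Of 22, 16 were called higher and 1 lower (21% and 12.1% of all tested genes), with a median log2 fold change of 3.79. Of the 18 that reached 1 TPM in both groups 12 were called higher, against 13.6% of all such genes. Spp1, or osteopontin, was all but absent from organoids at 0 to 0.339 CPM (median 0.0264) and had 529, 1573 and 1504 CPM in tumoroids 1, 2 and 3 (log2 fold change 13.78 ± 0.67 (SE), adjusted p = 1.1e-06). Ly6a, the gene of Sca1, had 577, 247 and 1017 CPM against 2.64 to 11.2 CPM (median 4.54) (log2 fold change 6.89 ± 0.48 (SE), adjusted p = 4.8e-06). Tumoroid 1 had the least Spp1 of the tumoroids and tumoroid 2 the least Ly6a. Without organoid mouse 2 the log2 fold change of Spp1 was 16.43, and without tumoroid 3 that of Ly6a was 6.29. Anxa3, an annexin, was even across tumoroids at 289.9, 315 and 312 CPM against 30.6 to 61.6 CPM (median 38.0) (log2 fold change 2.89 ± 0.14 (SE), adjusted p = 1.1e-06), and Il1rn, the interleukin-1 receptor antagonist, had 158, 209 and 189 CPM against 12.3 to 24.2 CPM (median 18.2) (log2 fold change 3.37 ± 0.22 (SE), adjusted p = 3.9e-06). The alarmin Il33 had 19.5, 42.3 and 31.2 CPM against 0.605 to 3.05 CPM (median 1.68). Ereg, the EGF receptor ligand epiregulin, was the member called lower, at 1.77, 13.2 and 0.790 CPM against 15.7 to 41.8 CPM (median 22.7) (log2 fold change -2.17 ± 0.78 (SE), adjusted p = 0.041). Its call was lost without tumoroid 1 or 3 and without any 1 organoid library other than WT-cM-titled organoids 1, and without tumoroid 2 its log2 fold change was -4.25. Not called were S100a6, Areg, Plaur, Emp1 and Sprr1a, and Sprr1a was at 1.13, 0.706 and 56.8 CPM in tumoroids 1, 2 and 3 against 13.9 to 50.9 CPM (median 26.7), so that it was called lower without tumoroid 3.

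**Figure D4:**
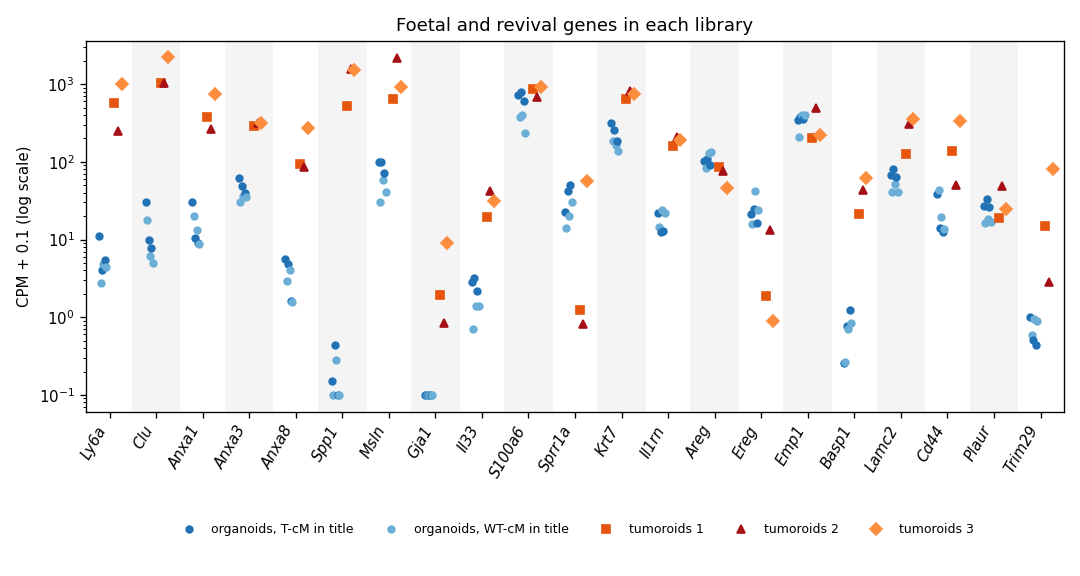
CPM plus 0.1 on a log axis for 21 foetal and revival genes, with 1 point per library (organoids blue, tumoroids red and orange). Tumoroid points lie above all organoid points in 15 genes and below all of them in Ereg.

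Of 20 tested YAP targets 16 were called higher and 1 lower (21% and 12.1% of all tested genes). Only 10 of them reached 1 TPM in both groups, of which 6 were called higher, against 13.6% of all genes that reached it in both. The other targets passed the limit through the tumoroids alone. Ctgf and Cyr61, secreted matricellular proteins and standard readouts of YAP, had 14.7, 38.0 and 70.4 CPM and 43.0, 71.3 and 90.7 CPM in tumoroids against 0.0608 to 0.899 CPM (median 0.339) and 1.13 to 2.27 CPM (median 1.47) in organoids. Ptpn14, a phosphatase that itself restrains YAP, stood at 43.6, 96.9 and 83.8 CPM against 0.122 to 0.476 CPM (median 0.333) (log2 fold change 7.85 ± 0.36 (SE), adjusted p = 9.6e-07). Arhgef17 and Myof had log2 fold changes of 5.71 and 4.82, the latter 4.11 without tumoroid 3, and Ccdc80 had a ratio of 1490.0 (95% counting interval 508 to 7210.0), adjusted p = 1.5e-06. Tumoroid 1 was the lowest tumoroid for Ctgf, Cyr61, Ptpn14, Ccdc80 and Myof. Dock5, an exchange factor for Rac, was called lower at 41.8, 64.8 and 51.8 CPM against 111 to 157 CPM (median 124) (log2 fold change -1.27 ± 0.17 (SE), adjusted p = 0.00022). Crim1, Gadd45a and Nuak2 were not called, and Igfbp3 and Foxf2 did not reach the limit for testing.

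Of 16 interstitial matrix genes only 5 were tested, and these 5 were called higher (21% of all tested genes). Of the 5, 4 passed the limit for testing through the tumoroids alone and 1, Thbs1, reached it in both groups, so this count does not stand for the list. Thbs1, which encodes thrombospondin-1, a secreted protein that binds integrins and CD47, had 73.8, 76.3 and 435 CPM in tumoroids 1, 2 and 3 and 2.17 to 3.81 CPM (median 3.29) in organoids (log2 fold change 5.94 ± 0.56 (SE), adjusted p = 2.6e-05). Fn1, fibronectin, had 32.9, 105 and 651 CPM against 0 to 0.136 CPM (median 0) (log2 fold change 13.51 ± 1.38 (SE), adjusted p = 0.00013). Tnc, Col6a1 and Col6a2 were also highest in tumoroid 3, at 11, 33.4 and 2.99 CPM. Without tumoroid 3 the log2 fold changes were 4.55 for Thbs1 and 11.52 for Fn1. Col6a2 lost its call without tumoroid 3 and without any 1 organoid mouse. The fibrillar collagens Col1a1, Col1a2, Col3a1, Col5a1 and Col5a2 stayed at or below 0.584 CPM in every library.

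The basement membrane list, which an epithelium makes in part itself, had 9 of 14 called higher and 1 lower (21% and 12.1% of all tested genes). Of the 7 that reached 1 TPM in both groups 4 were called higher, against 13.6% of all such genes. The laminin chains Lamb2 and Lama5 had 65.5, 92.0 and 96.7 CPM and 264, 698 and 389 CPM in tumoroids against 0.730 to 2.17 CPM (median 1.75) and 5.29 to 10.8 CPM (median 9.28) in organoids (log2 fold change 5.75 ± 0.29 (SE), adjusted p = 1.2e-06 for Lama5). The type IV collagen chains Col4a1 and Col4a2, which are transcribed from one shared promoter region, had 27.9, 71.8 and 18.9 CPM and 22.3, 77.0 and 13.4 CPM against 0.338 to 0.851 CPM (median 0.574) and 0.220 to 1.32 CPM (median 0.752). Both chains were highest in tumoroid 2. Nid1, which links laminin to collagen, was the gene called lower, at 0.0453, 0.372 and 0.309 CPM against 2.53 to 9.42 CPM (median 7.16) (log2 fold change -4.73 ± 0.66 (SE), adjusted p = 0.00028). Lamb3, Agrn, Lamc1 and Col17a1 were not called. Of 16 listed proteases and their inhibitors 13 were tested, of which 10 were called higher (21% of all tested genes) and none lower. Of these 13, 7 reached 1 TPM in tumoroids alone. The other 6 reached it in both groups and 4 of them were called higher, against 13.6% of all such genes. Timp2, a metalloprotease inhibitor, had the smallest p of all list members, at 157, 193 and 297 CPM against 0.0529 to 0.440 CPM (median 0.312) (log2 fold change 9.77 ± 0.28 (SE), adjusted p = 1.9e-07). Timp3 had 236, 919 and 269 CPM against 6.75 to 13.9 CPM (median 9.25), Mmp14, a membrane-bound protease, 95.6, 66.3 and 198 CPM against 14.7 to 29.6 CPM (median 21.7), and Plau, the urokinase, 7.16, 2.23 and 50.8 CPM against 0 to 0.113 CPM (median 0.0868). Mmp13, a collagenase, was at 0.136, 0.409 and 32.3 CPM in tumoroids, nearly all of it in tumoroid 3, with no counts in organoids, at least 65.0-fold higher on average, or at least 1.62-fold without tumoroid 3.

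Of 18 genes of epithelial identity 4 were called higher and 1 lower, the former share near the 21% of all tested genes and the latter below the 12.1%, with a median log2 fold change of 0.04. Krt18 was higher (1461, 1065 and 1584 CPM against 410.3 to 723 CPM (median 505)) and Krt19 lower (1139, 1119 and 1080.5 CPM against 2178 to 2741 CPM (median 2322)), whereas Krt8, the partner of both keratins, was not called (log2 fold change -0.75 ± 0.17 (SE), adjusted p = 0.0053). Grhl2, a transcription factor that maintains epithelium, had 63.7, 74.1 and 81.3 CPM against 23.2 to 35.8 CPM (median 25.9) (log2 fold change 1.37 ± 0.18 (SE), adjusted p = 0.00016), and Ehf and Cldn4 were higher too. Of 12 genes of mesenchymal transition, 8 were not tested, among them Zeb1, Zeb2, Snai1, Snai2 and Twist1, which had at most 0.275 CPM in any library. Vim, vimentin, was at 3.76, 1.75 and 1.99 CPM in tumoroids and 1.49 to 4.18 CPM (median 2.70) in organoids and was not called. Cdh13, a cadherin held in the membrane by a lipid anchor, had 87.1, 52.0 and 294 CPM against 1 count in all organoids, and Msn, the cytoskeletal linker moesin, 28.6, 43.9 and 247 CPM against 0 to 0.113 CPM (median 0.0339) (log2 fold change 12.06 ± 1.06 (SE), adjusted p = 6.1e-05, or 10.45 without tumoroid 3). Prrx1, a mesenchymal transcription factor, was lower in tumoroids, with 0, 0 and 0.0343 CPM against 4.41 to 15.1 CPM (median 6.42) (a ratio of 663 (95% counting interval 119 to 26200.0), adjusted p = 7.6e-06 in favour of organoids). Its 1 tumoroid count was in tumoroid 3.

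Genes of replication and mitosis gave almost no calls. Of 21, 1 was called higher and none lower, below the 33.1% of all tested genes, with a median log2 fold change of 0.28. Mki67, the usual marker of cycling cells, was at 166, 107 and 134 CPM in tumoroids and 92.1 to 276 CPM (median 131) in organoids (log2 fold change -0.21 ± 0.35 (SE), adjusted p = 0.65). The gene called was Mcm2, part of the replicative helicase, at 134, 95.7 and 90.7 CPM against 29.6 to 94.0 CPM (median 37.8) (log2 fold change 1.06 ± 0.38 (SE), adjusted p = 0.041). Its partner Mcm6 had 244, 144 and 170.4 CPM against 65.0 to 159 CPM (median 79.6) (log2 fold change 0.92 ± 0.31 (SE), adjusted p = 0.033). WT-cM-titled organoids 1 held the highest organoid level of each of the 21 genes. Without T-cM-titled organoids 1 or without WT-cM-titled organoids 1, 4 members were called higher, and without both, 6 were. Leaving out any other single organoid library, or tumoroid 1, gave 0. Mki67 was slightly higher in tumoroids on the TPM scale (log2 fold change 0.39) and without organoid mouse 1 (0.22).

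Of 10 genes that arrest the cell cycle, 2 were called higher, a share near the 21% of all tested genes. Cdkn2a, which encodes p16 and p19ARF, had 9.20, 8.81 and 15.3 CPM in tumoroids and 0 to 0.122 CPM (median 0.0275) in organoids (log2 fold change 7.74 ± 0.62 (SE), adjusted p = 1.1e-05), and Gadd45b had 34.5, 25.9 and 44.5 CPM against 8.20 to 15.4 CPM (median 10.1) (log2 fold change 1.70 ± 0.22 (SE), adjusted p = 0.00017). Cdkn1a, the p21 gene, was not called (286, 336 and 210.4 CPM against 173 to 292 CPM (median 243)). Without tumoroid 2, 4 genes of the list were called. In the oncofoetal list of 10 genes 6 were tested, of which 2 were called higher and 2 lower, against 21% and 12.1% of all tested genes. H19, an imprinted long non-coding RNA of foetal tissue, had 12.1, 65.1 and 10.3 CPM against 0 to 0.0886 CPM (median 0.0282) (log2 fold change 9.41 ± 0.85 (SE), adjusted p = 2.0e-05), and the growth factor receptor Igf1r 12.8, 45.7 and 31.2 CPM against 4.50 to 7.91 CPM (median 5.49) (log2 fold change 2.35 ± 0.34 (SE), adjusted p = 0.00032). The chromatin protein Hmga2 was lower (2.22, 3.38 and 0.137 CPM against 5.63 to 17.1 CPM (median 10.8)), and so was Igf2bp2. Hmga2 was not called without organoid mouse 1 or 3. Without organoid mouse 3 the log2 fold changes of Cdkn2a and H19 were 8.88 and 10.96, and without tumoroid 2 that of H19 was 8.01.

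In the list of BMP and TGF-beta genes the called members were ligands, targets and 1 receptor. Of 18 genes 9 were called higher (21% of all tested genes) and none lower. Of the 13 that reached 1 TPM in both groups 4 were called higher, against 13.6% of all such genes. Tgfb3 had 21.1, 23.2 and 63.6 CPM in tumoroids and no counts in organoids, at least 213-fold higher on average, or at least 131-fold without tumoroid 3. Bmp4 had 7.89, 6.88 and 14.6 CPM against 0 to 0.133 CPM (median 0.0546) (log2 fold change 7.41 ± 0.56 (SE), adjusted p = 7.5e-06, or 8.12 without organoid mouse 3), and Tgfb1 10.3, 6.40 and 14.1 CPM against 1.02 to 1.96 CPM (median 1.47) (log2 fold change 2.79 ± 0.31 (SE), adjusted p = 7.2e-05). Of the receptors Tgfbr2 was higher (369, 706 and 382 CPM against 96.7 to 148 CPM (median 111), log2 fold change 2.04 ± 0.23 (SE), adjusted p = 7.5e-05), and Tgfbr1, Bmpr1a and Bmpr2 were not called. Id2, a target of BMP signalling, had a log2 fold change of 1.15, or 0.96 and no call without tumoroid 3. In the Notch list, 4 of 11 were called higher and 2 lower, against 21% and 12.1% of all tested genes. The ligand Jag2 had 89.1, 126 and 47.2 CPM against 9.12 to 16 CPM (median 11.5) (log2 fold change 2.88 ± 0.27 (SE), adjusted p = 2.6e-05) and the receptor Notch3 17, 12.2 and 92.1 CPM against 0.204 to 1.00 CPM (median 0.382) (log2 fold change 6.19 ± 0.72 (SE), adjusted p = 8.9e-05, or 4.70 without tumoroid 3 and 6.92 without organoid mouse 1). The ligand Dll1 was lower at 21.2, 15.8 and 16.7 CPM against 36.4 to 89.2 CPM (median 43.7) (log2 fold change -1.52 ± 0.23 (SE), adjusted p = 0.00047), as was Atoh1, the gate to secretory fates that Notch represses (5.76, 1.26 and 4.19 CPM against 8.63 to 10.3 CPM (median 9.95), not called without tumoroid 2 or organoid mouse 2 or 3). The target Hes1 was not called (log2 fold change 0.68 ± 0.16 (SE), adjusted p = 0.0068).

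Of 9 tested EGF receptor family members and ligands 2 were called higher and 1 lower, shares near the 21% and 12.1% of all tested genes. The ligands Btc and Hbegf were called higher (68.5, 92.2 and 55.5 CPM and 29.2, 45.4 and 37.9 CPM in tumoroids against 25.2 to 38.1 CPM (median 28.8) and 9.95 to 19.3 CPM (median 13.6) in organoids) and Ereg lower. Egfr itself had 26.6, 40.0 and 47.5 CPM against 15.1 to 23.9 CPM (median 18.3) and a log2 fold change at the limit for a call (log2 fold change 1.00 ± 0.21 (SE), adjusted p = 0.0033), which it passed without tumoroid 1 (1.20), without T-cM-titled organoids 1 (1.09) and without WT-cM-titled organoids 1 (1.05). AP-1 and early response genes had 9 of 16 called higher (21% of all tested genes) and none lower. Ier3, an early response gene, had 112, 237 and 260.0 CPM against 6.05 to 9.43 CPM (median 8.27) (log2 fold change 4.64 ± 0.25 (SE), adjusted p = 1.4e-06), Jun 79.6, 55.5 and 193 CPM against 19.8 to 35.4 CPM (median 27.6) (log2 fold change 2.00 ± 0.34 (SE), adjusted p = 0.00097, or 1.29 without tumoroid 3), and Junb 127, 128 and 190.5 CPM against 52.0 to 77.7 CPM (median 63.2) (log2 fold change 1.22 ± 0.17 (SE), adjusted p = 0.00028, or 0.99 and no call without tumoroid 3). Fosl2, Maff and Etv5 had log2 fold changes of 1.61, 1.59 and 1.35.

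Immune-related genes did not move together. Of 18 interferon response genes 14 were not called and 3 were called higher, a share below the 21% of all tested genes. Ifit2 was higher (9.70, 9.22 and 11.9 CPM against 0.395 to 1.16 CPM (median 0.951), log2 fold change 3.54 ± 0.30 (SE), adjusted p = 1.4e-05), as was Bst2, or tetherin (37.3, 31.6 and 51.3 CPM against 11.6 to 17.8 CPM (median 14.7)), while Oasl1 was lower (8.25, 12.1 and 14.4 CPM against 26.0 to 80.4 CPM (median 40.4)). Ifi44 was at 1.13, 4.05 and 32.9 CPM in tumoroids 1, 2 and 3, and tumoroid 3 was also the highest tumoroid for Irf7, Isg15 and Mx1. Without tumoroid 3 the log2 fold change of Ifi44 was 3.08 in place of 5.37. Without tumoroid 1, 5 interferon genes were called higher instead of 3. Of 12 MHC genes 5 were called lower (12.1% of all tested genes) and none higher. H2-K1, a class I heavy chain, had 257, 182 and 467 CPM against 659 to 860.3 CPM (median 797) (log2 fold change -1.35 ± 0.28 (SE), adjusted p = 0.003), and H2-Ab1, a class II chain, 0.544, 1.04 and 0.206 CPM against 3.66 to 16.5 CPM (median 6.53) (log2 fold change -3.67 ± 0.64 (SE), adjusted p = 0.0011, or -4.39 without tumoroid 2). B2m, the partner of class I chains, lay below all organoids without being called (log2 fold change -0.84 ± 0.19 (SE), adjusted p = 0.0045, or -1.06 with a call without tumoroid 3). Among chemokines and cytokines 10 of 18 were called higher and 3 lower, against 21% and 12.1% of all tested genes. Of the 11 that reached 1 TPM in both groups 4 were called higher and 3 lower (13.6% and 12.2% of all such genes). Tnf had 13.8, 6.51 and 15.8 CPM against 0.310 to 0.846 CPM (median 0.525) (log2 fold change 4.38 ± 0.37 (SE), adjusted p = 1.5e-05), and Csf1, the growth factor of macrophages, 17.3, 17.4 and 49.2 CPM against 0.271 to 1.68 CPM (median 1.10) (log2 fold change 4.69 ± 0.44 (SE), adjusted p = 2.6e-05, or 3.99 without tumoroid 3). Ccl25, the chemokine that draws lymphocytes to the small intestine, was lower at 90.0, 85.7 and 26.2 CPM against 555 to 867 CPM (median 799) (log2 fold change -3.45 ± 0.42 (SE), adjusted p = 0.00012), and Il15 and Il18 were lower too.

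The largest differences among all called genes with an average of at least 100 counts and no overlap were named by rule, ranked by the fitted log2 fold change. For genes without counts in 1 group this rank rests on the fit, and the counts give only a bound. The 10 largest increases were in Serpinb11, Gabrp, Sftpd, Spp1, Fn1, Cdh13, Serpinb7, Wnt7b, Tgfb3 and Sbspon. Serpinb11, a serpin (chr1:107361198-107380475, Gencode annotation of GRCm38), had 132, 274 and 301 CPM in tumoroids 1, 2 and 3 and no counts in any organoid library, at least 1400.0-fold higher on average. Sftpd, surfactant protein D, a secreted lectin of mucosal defence (chr14:41172214-41185149), had 129, 70.0 and 111 CPM and no counts in organoids, at least 613-fold higher. Wnt7b, a Wnt ligand (chr15:85535437-85582473), had 51.2, 92.1 and 119 CPM against 1 count in all organoids, a ratio of 9520.0 (95% counting interval 1710.0 to 376000.0). These were even across tumoroids, whereas Gabrp, a GABA receptor subunit (chr11:33550781-33578959), was at 38.3, 0.260 and 339 CPM and Serpinb7 at 16.9, 10.7 and 128 CPM, mostly in tumoroid 3. Sbspon had 52.4, 39.4 and 94.3 CPM against 1 count.

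By the same fitted value, the 10 largest decreases were in Slc5a4b, Rps4l, Ugt2b5, Fabp1, Slc23a1, Leap2, Enpp7, Adh6a, Syna and Ggt1. Rps4l, Slc23a1, Enpp7 and Syna had no tumoroid counts, and their log2 bounds were -7.49, -6.0, -5.84 and -5.78. Those bounds are smaller in size than the fitted decrease of genes left out, such as Sis at -8.88. Slc5a4b, a member of the sodium-glucose transporter family (chr10:76057494-76110961), had 183 to 289.5 CPM (median 218) in organoids and 1 count in all tumoroids, a ratio of 17600.0 (95% counting interval 3150.0 to 693000.0) in favour of organoids. Adh6a, an alcohol dehydrogenase, had 0.0906, 0.260 and 0.584 CPM in tumoroids against 235 to 521 CPM (median 324), and Ggt1, a brush border enzyme of glutathione breakdown, 0.272, 0.186 and 0.309 CPM against 154 to 304 CPM (median 159). Leap2, the hormone that antagonises ghrelin, had 0, 0.0744 and 0.0687 CPM against 32.2 to 101 CPM (median 60.1). Enpp7, the alkaline sphingomyelinase of the gut, and Slc23a1, a vitamin C transporter, had no counts in tumoroids, at least 57.2-fold and 64.0-fold lower on average. Syna, a syncytin, was likewise without counts in tumoroids (4.55 to 9.79 CPM (median 6.09) in organoids). Rps4l, an autosomal relative of a ribosomal protein gene (chr6:148354656-148355598), was even in organoids at 19.1 to 23.9 CPM (median 20.6) and had no counts in any tumoroid library. The strain label differs between the groups, and its part in Rps4l was not tested.

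The most abundant transcripts also differed in the deposited TPM, which allow levels of different genes to be compared. In organoids the genes with the highest means included Fabp1 (23462 ± 10681 TPM, SD, n = 6), Defa24, mt-Co1, Eef1a1, Fth1, Lgals2, mt-Nd1, Gstm1 and Gstm3. In tumoroids they were Eef1a1 (18748 ± 3552 TPM, SD, n = 3), mt-Co1, Rplp1, Gm23935, Reg3b, Rps15, Rpl8, Rps24, Eef2 and Rpl17. Only mt-Co1 and Eef1a1 were in both groups' first 10. Fabp1 averaged 23.0 ± 17.3 TPM in tumoroids. Reg3b, an antimicrobial lectin, had 4042, 15700.4 and 2389 TPM in tumoroids 1, 2 and 3 against a mean of 129 ± 54.8 in organoids. The protein synthesis genes of the tumoroid list, all with higher means in tumoroids, were not part of the gene lists and were read here on the TPM scale, on which the median gene was higher too.

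The 3 tumoroids differed from each other more than organoids did. Over all tested genes the median SD of log2 CPM was 0.300 among tumoroids and 0.181 and 0.201 within the organoids titled T-cM and those titled WT-cM, each of which also came from 3 mice. Of 11103 genes that averaged 100 or more counts in tumoroids, 697 (6.28%) were at least 4-fold apart between the highest and the lowest tumoroid, against 0.528% and 0.637% in the organoid groups. Spearman's rho across genes was 0.947 to 0.965 between tumoroids, 0.978 to 0.994 between organoids and 0.835 to 0.897 between the kinds, where genes are not independent replicates. Tumoroid 3 was the farthest from organoids, with a mean rho of 0.842 against 0.882 and 0.875 for tumoroids 1 and 2. It alone was at least 4-fold above both others in 166 genes and below them in 68. For tumoroid 2 the counts were 64 and 77, and for tumoroid 1 they were 9 and 20.

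**Figure D5:**
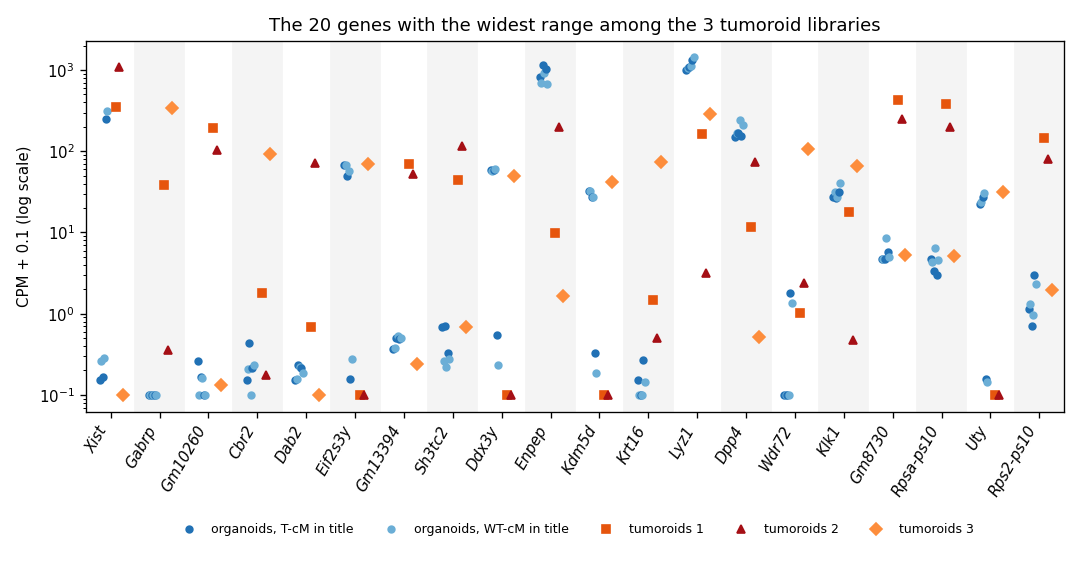
CPM plus 0.1 on a log axis for the 20 genes with the widest range among the 3 tumoroid libraries, with 1 point per library (organoids blue, tumoroid 1 square, tumoroid 2 triangle, tumoroid 3 diamond). Gabrp spans 0.260 to 339 CPM among tumoroids while organoids lie at 0, and Enpep spans 1.55 to 199 CPM, below all organoids.

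The 10 genes with the widest range were Xist, Gabrp, Gm10260, Cbr2, Dab2, Eif2s3y, Gm13394, Sh3tc2, Ddx3y and Enpep. Xist, the RNA of the inactive X chromosome, and the Y-linked Eif2s3y and Ddx3y followed the sex of the mice. Xist was at 351, 1084 and 0 CPM and Eif2s3y at 0, 0 and 68.7 CPM in tumoroids 1, 2 and 3, so tumoroid 3 came from a male and the others from females. Among organoids mouse 3 had Xist and mice 1 and 2 had the Y-linked transcripts, so both sexes were in both groups. Cbr2, a carbonyl reductase, was at 1.72, 0.0744 and 92.7 CPM and nearly private to tumoroid 3. Dab2, an endocytic adaptor, was at 0.589, 71.2 and 0 CPM and nearly private to tumoroid 2, without which it was not called. Enpep, a brush border peptidase, was at 9.83, 199 and 1.55 CPM against 676 to 1164 CPM (median 865) in organoids. Sh3tc2 had 44.8, 117 and 0.584 CPM, and the processed pseudogenes Gm10260 and Gm13394 had 193, 105 and 0.0343 CPM and 69.0, 52.9 and 0.137 CPM. These last genes were high in tumoroids 1 and 2 and below 1 CPM in tumoroid 3, as in organoids. Pseudogene reads can be shared with their parent genes, so these values are uncertain.

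Several other genes were high in tumoroid 3, and the following were named after their values were seen. Krt16, a keratin of stressed epidermis, was at 1.36, 0.409 and 74.5 CPM in tumoroids 1, 2 and 3, Trp63, the p63 transcription factor of basal cells, at 0.317, 0.112 and 36.6 CPM, and Asprv1, a protease of the outer epidermis, at 9.15, 4.28 and 245 CPM. In organoids the highest levels of these genes were 0.169, 0.0678 and 1.99 CPM. The same library had the most Acta2, Fn1 and Mmp13 and the lowest Cdx2, Dpp4 and Sis. Without tumoroid 3, 3121 genes were called higher and 2004 lower, and 4738 genes were shared with the full comparison, 88.3% of its calls. Of 159 called genes with values given here, 35 moved by over 1.5-fold without tumoroid 3, 19 without tumoroid 2 and 7 without tumoroid 1. Without tumoroid 3 Acta2 had a log2 fold change of 4.04.

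Differences along the chromosomes were small. Over genes above 5 CPM in every library, the median log2 difference of a tumoroid from the mean of organoids lay between -0.16 (chromosome 18, tumoroid 1) and 0.09 (chromosome 9, tumoroid 3) for all 19 autosomes, while organoid libraries lay between -0.08 and 0.04. Mitochondrial transcripts moved more. Over 9 genes of the mitochondrial genome the median was -1.56, -0.04 and -1.35 in tumoroids 1, 2 and 3. The share of counts on mitochondrial genes was 0.701%, 2.17% and 0.817% in tumoroids and 1.33% to 1.80% in organoids, so tumoroid 2 lay above and the others below all organoids (exact permutation test, two-sided p = 0.452). The 10 most abundant genes took 5.66%, 5.66% and 4.19% of counts in tumoroids and 5.45% to 7.70% in organoids, and 12517 to 12718 genes reached 1 CPM in tumoroids against 11723 to 12020.0 in organoids.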

How the data were processed

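RNA was measured by stranded poly(A) RNA-seq in 3 tumoroid and 6 organoid libraries. The authors aligned reads with STAR to mm10 and deposited a table of read counts per gene with Gencode identifiers, and a table of TPM, which the authors scaled so that each library sums to 1000000. The counting tool and its strand setting are not given in the sources used here. Groups came from the titles.

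Counts were fitted with edgeR 4.0.16 (R 4.3.3) using TMM factors, a quasi-likelihood test and 3 group means, and the tumoroid mean was set against the mean of both organoid means. The 16208 genes that reached 1 TPM in any library were tested, and p-values were adjusted over all of them by the Benjamini-Hochberg method. Calls required an adjusted p below 0.05 together with a log2 fold change beyond 1 in size. The common biological coefficient of variation was 0.332. Tumoroid TMM factors were 1.19 to 1.21 and organoid factors 0.890 to 0.962. CPM use these factors. Sums over marker lists were compared with exact permutation tests (scipy 1.17.1, Python 3.11.15).

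Named genes were Apc, up to 6 members of each list with the smallest p, members against their list's majority or extreme in 1 tumoroid, the 10 largest called changes in each direction among genes whose groups did not overlap and whose higher group averaged 100 or more counts, the 10 widest ranges among tumoroids, the 10 most abundant genes by TPM and the marker lists, and some genes that these rules name are not reported here. Members, lists and tests were chosen with earlier results of these data known. P-values measure the spread between these libraries, and the organoid libraries of 1 mouse correlate (0.757 by limma 3.58.1). Alternatives were other factors, filters and tests (DESeq2 1.42.0, limma voom, glmTreat), TPM, summed mice, 1 organoid medium as control, a replicate block and each library left out. The fit was tested on simulated data before use.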

Additional observations from a re-analysis of the deposited data

Results flagged for a closer look

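In 17 of 197 examined values (8.63%) 1 of the 6 organoid libraries stood apart from the other 5 by Dixon's criterion. Its chance rate of about 1 in 20 holds for 6 independent, normally distributed values. These libraries came from 3 mice and some values rest on very few counts, so 8.63% is not set against that rate. Groups of 3, which include the tumoroids, were not examined, and no explanation was weighed. WT-cM-titled organoids 3 stood apart in 6 genes, with the highest Defa24 (2398 CPM against 1728 to 1956 in the other organoid libraries), Ggt1 (304.1 against 154.3 to 208.5), Notum (0.753 against 0.0529 to 0.165), Muc1 (0.0886 against 0) and Retnlb (0.0443 against 0) and the lowest Cdh1 (731.8 against 829.3 to 882.5), and also in the erythroid sum (0.177 against 0 to 0.0564). WT-cM-titled organoids 1 had the highest Rgmb (25.1 against 18.4 to 20.1), Tnfrsf19 (1.54 against 0.136 to 0.529) and Sbspon (0.0550 against 0). WT-cM-titled organoids 2 had the highest Ereg (41.8 against 15.7 to 24.4). T-cM-titled organoids 1 had the highest Acta2 (0.846 against 0 to 0.169), Ly6a (11.2 against 2.64 to 5.35) and smooth muscle sum (0.952 against 0.177 to 0.243). T-cM-titled organoids 2 had the only organoid count of Cdh13 (0.0678 CPM), and T-cM-titled organoids 3 the only one of Wnt7b (0.0564 CPM) and the highest Krt16 (0.169 against 0 to 0.0529). The values of Muc1, Retnlb, Sbspon, Cdh13 and Wnt7b lie under the 3-count limit. For all genes named here other than Cdh1, every tumoroid library lay outside the range of the organoids.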

How the results depend on the processing

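Over 28 alternatives, 4955 of 5188 gene values kept their direction and their side of the threshold, 149 lost a call, 59 gained one and 25 changed sign. The number of called genes (5363) lay between 4495 and 6533 with any other factors, filter, test at the same thresholds, TPM or control, apart from 3588 in a test against a log2 fold change of 1, and between 4593 and 5368 with 1 library or organoid mouse left out. Without a fold change threshold 8165 genes were called, 3370 of them lower. Higher calls numbered 5131 with TPM and a pseudocount of 0.1, and lower calls 1271 in the test against a fold change and 1143 with TPM and a pseudocount of 1. The TPM alternatives applied no normalisation factors, unlike the main fit, and the cause of these shifts was not tested.

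Counts of list members moved by over 1.5 times as follows. In the test against a fold change, calls were 1 for epithelial identity (of 4 higher), 0 for replication (1), 3 for glycolysis (9 lower), 0 for EGF receptor ligands (2), 3 for AP-1 (9) and 3 for MHC (5 lower). With TPM and a pseudocount of 1 they were 3 for interstitial matrix (5), 6 for replication, 5 for arrest (2), 4 for glycolysis, 7 for fatty acid oxidation (11 lower), 7 for Notch (4) and 3 for MHC, and with a pseudocount of 0.1 they were 6, 5, 4, 7 and 7 for replication, arrest, glycolysis, fatty acid oxidation and Notch. Enteroendocrine genes had 9 lower calls with limma voom and 3 against T-cM-titled organoids alone (5), where MHC had 3. Interstitial matrix had 8 calls without a filter, and gastric genes 5 (of 9) with a correlation within mouse. Replication had 2 with upper-quartile factors, 0 with summed mice, 0 against either organoid medium alone and 2 without a fold change threshold, under which arrest had 5. With 1 library or mouse left out the ranges were 4 to 9 for enteroendocrine genes, 0 to 6 for replication, 2 to 4 for arrest and 3 to 5 for interferon genes.

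The sign changed for genes that were not called. With TPM at pseudocounts 1 and 0.1 the log2 fold changes were 0.09 and 0.09 for Apc, 0.04 and 0.04 for Cdx2, 0.17 and 0.17 for Epcam, 0.39 and 0.40 for Mki67, 0.23 and 0.25 for Rgmb and 0.23 and 0.38 for Vim. Vim had 0.01 with upper-quartile factors and 0.14 against T-cM-titled organoids, where Cdh1 had -0.07. With 1 library or mouse left out the log2 fold changes ranged from -0.08 to 0.19 for Cdh1, -0.47 to 0.22 for Mki67, -0.16 to 1.00 for Slc10a2 and -0.52 to 0.17 for Vim, those of Sprr1a, which came to 0.00 without tumoroid 2, from -5.0 to 0.00 with no value clearly above 0, and the differences in summed level from -0.420 to 0.653 CPM for fibroblast and -0.469 to 0.411 CPM for glial and neural markers.

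The replicate block called 5409 genes, 3387 higher and 2022 lower. Deviations of same-numbered organoid libraries correlated (0.497 to 0.700), as they share mice. Those of tumoroids with same-numbered organoids, from different mice, lay between -0.056 and 0.235, and with other-numbered organoids between -0.254 and 0.131. With 3 libraries per group these values do not decide whether the numbers pair tumoroids with organoids. The main comparison used no such pairing. Depth limits genes near the 3-count floor, and for genes without counts in 1 group any fold is given as a bound.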
